A study of Mus musculus with 8 samples.

Results

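The genes described here set up the polarity of an epithelial cell, its division into apical and basolateral sides. They are Pard3 and Pard6b of the Par complex, Crb3 and Patj of the Crumbs complex, Scrib and Llgl2 of the Scribble complex, and Rab25, Myo5b and Ap1m2, which carry cargo to the apical or basolateral membrane. Chromatin accessibility at these 9 genes was read from 8 ATAC-seq libraries, in which a transposase cuts and tags open DNA. A consensus region, which joins the peaks of the 4 lines, was counted to a gene when that gene was the nearest protein-coding gene and the region lay inside it or within 50 kb. By this rule 41 of the 57417 regions fell to 8 of the 9 genes: 16 to Pard3, 9 to Myo5b, 7 to Pard6b, 3 to Patj, 2 each to Llgl2 and Ap1m2, and 1 each to Rab25 and Scrib. Crb3 had none. All 8 genes with a region passed the filter on low counts, but Rab25 passed it only through PB3-ERI-R, the line in which it was high, and was under the filter without that line. A locus below is the sum of the counts of a gene's regions, so its value is accessibility and not expression.

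PB3 is a mouse breast cancer line whose labels call it negative for Er, Pr and Her2. PB3-Parental was the untreated line. PB3-ERI-R (eribulin, spelled Erubilin in the sample titles), PB3-PAC-R (paclitaxel) and PB3-VIN-R (vinorelbine) were labelled as resistant lines of PB3 origin, raised under 300, 500 and 800 nM of drugs that act on microtubules. The treatment text speaks of clones, the number of clones behind each line is not given in the sources used here, and the series asks whether chromatin change can move mesenchymal cancer cells toward an epithelial state. Each line had 2 libraries, n = 2 throughout, and the labels do not name them as separate cultures. The p-values therefore rest on the spread between these libraries alone, and that spread may be technical.

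Epithelial cells are polarized: an apical membrane faces the lumen and a basolateral membrane faces the neighbours and the matrix. The Par complex and the Crumbs complex mark the apical side and the junctions, the Scribble complex marks the basolateral side, and each limits the reach of the other. Rab25, a small GTPase of epithelial recycling endosomes, and the motor Myo5b move membrane to the apical surface, whereas Ap1m2, the epithelial medium subunit of the AP-1B adaptor, sorts proteins to the basolateral surface. In carcinoma cells, repressors of the ZEB and SNAI families bind E-boxes in the promoters of several such genes, Crb3, Llgl2 and Patj among those described.

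The libraries of PB3-ERI-R stood apart from all the others, and every comparison with that line carries this. Counts ran from 10521964 to 24052237 per library. Across regions, libraries of 1 line correlated at 0.970 to 0.982, libraries of different lines other than PB3-ERI-R at 0.948 to 0.984, and PB3-ERI-R with any other line at 0.177 to 0.274. Over 5 regions of a stretch around Cdkn2a (chr4:89217739-89360718), PB3-ERI-R had 3296 counts, against 1 in PB3-PAC-R and 0 in both PB3-Parental and PB3-VIN-R. DNA with no counts in the line of origin was thus read in a line labelled as its derivative, so drug resistance and a different origin of the cells cannot be told apart in any comparison of PB3-ERI-R. Of the mammary epithelium markers all 7 had regions, and their summed accessibility in CPM, counts scaled to a common library total, was 394 to 532 in PB3-Parental, 812 to 939 in PB3-ERI-R and 380 to 547 in the other lines. They did not move alike in PB3-ERI-R: 5 rose, and 2, Krt8 and Krt18, did not pass the test used below. Of all loci 28.0% rose and 30.3% fell. Of the markers of other cell types, 5 of 6 fibroblast genes had regions, with summed CPM of 212 to 230 in PB3-Parental and 180 to 184 in PB3-ERI-R, and 4 of 5 endothelial genes, with 182 to 203 and 113 to 119. In PB3-ERI-R 2 of the fibroblast genes fell and 3 did not pass, and 2 of the endothelial genes fell and 2 did not pass. For macrophages and leukocytes 3 of 6 genes had regions, with 61 to 92.2 CPM in PB3-Parental and 13.5 to 13.8 in PB3-ERI-R, and all 3 fell. Adgre1, Cd68, Lyz2, Lum and Cdh5 had no region in any line. The part of these cell types in the results was not tested. Of the receptor genes of the label, Pgr had no region, and the loci of Esr1 and Erbb2 did, at 84.2 and 90.3 CPM and at 40.7 and 35.4 CPM in PB3-Parental. In PB3-ERI-R the log2 change was -0.82 for Esr1 (adjusted p 0.000112, edgeR) and 0.88 for Erbb2 (adjusted p 0.000151, edgeR).

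RefSeq promoter windows, 250 bases before to 50 after a transcription start on GRCm38.p6, were found for 6 of the 9 genes. The 4 printed here, read 5′ to 3′ on the gene's own strand, are the windows that lie under a region of a member and hold the letters of the E-box. Capitals mark the E-box CAGGTG, or CACCTG where it reads on the opposite strand, and in Rab25 also AACCNGTT, the letters bound by Grainyhead-like factors, activators of epithelial genes.
Rab25: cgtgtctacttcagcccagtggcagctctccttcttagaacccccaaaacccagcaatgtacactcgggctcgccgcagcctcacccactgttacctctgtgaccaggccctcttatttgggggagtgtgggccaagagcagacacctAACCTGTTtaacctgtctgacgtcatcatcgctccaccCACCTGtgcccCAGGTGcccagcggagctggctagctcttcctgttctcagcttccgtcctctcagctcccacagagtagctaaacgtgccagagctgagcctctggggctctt
Ap1m2: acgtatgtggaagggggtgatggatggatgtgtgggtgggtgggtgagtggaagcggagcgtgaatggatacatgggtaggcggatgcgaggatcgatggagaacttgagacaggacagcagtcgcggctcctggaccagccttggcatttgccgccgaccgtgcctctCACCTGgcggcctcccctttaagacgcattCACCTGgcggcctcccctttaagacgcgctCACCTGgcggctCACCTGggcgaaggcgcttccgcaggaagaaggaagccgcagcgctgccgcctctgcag
Patj: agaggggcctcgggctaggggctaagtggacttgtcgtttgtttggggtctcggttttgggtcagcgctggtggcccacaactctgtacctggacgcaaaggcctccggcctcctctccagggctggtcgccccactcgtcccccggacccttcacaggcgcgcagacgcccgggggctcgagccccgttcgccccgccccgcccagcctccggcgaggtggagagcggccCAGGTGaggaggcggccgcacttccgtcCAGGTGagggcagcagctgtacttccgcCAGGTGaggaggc
Pard6b: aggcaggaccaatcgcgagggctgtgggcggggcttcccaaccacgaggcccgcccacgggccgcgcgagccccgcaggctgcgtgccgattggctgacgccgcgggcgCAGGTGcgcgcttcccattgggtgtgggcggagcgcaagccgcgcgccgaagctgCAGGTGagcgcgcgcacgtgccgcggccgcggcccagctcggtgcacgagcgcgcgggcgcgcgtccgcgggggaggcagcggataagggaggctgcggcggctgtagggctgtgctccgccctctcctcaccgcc
These are, in order, chr3:88548230-88548529 (minus strand), chr9:21312284-21312583 (minus strand), chr4:98395576-98395875 (plus strand) and chr2:168080754-168081053 (plus strand). Among 32817 RefSeq windows of the same length, 20.2% held the E-box on either strand at least once, 2.88% at least 2 times, 0.366% at least 3 times and 0.0548% at least 4 times. Ap1m2 held it 4 times, Patj 3 times, and Rab25 and Pard6b 2 times each. AACCNGTT was in 2.08% of windows, among them that of Rab25, where it did not overlap an E-box. All 12 marked stretches lay inside the deposited region at that promoter. The windows differed in CpG content, with 9 CpG dinucleotides in Rab25, 23 in Ap1m2, 25 in Patj and 47 in Pard6b against a median of 7 in all windows. The Pard3 window under a region had 42 CpG and no E-box, and its other window, under no region, held 3 E-boxes. The 2 overlapping windows of Crb3 held 4 E-boxes each and lay under no region. These matches are letters in a window and show no binding.

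PB3-ERI-R against PB3-Parental asks how the polarity genes differ in the line selected with eribulin. The loci of the 3 apical and basolateral traffic genes and of Llgl2 stood highest above the parental line: Rab25, Llgl2, Ap1m2 and Myo5b. Patj and Pard3 rose less, and Scrib and Pard6b did not pass the test. In all, 6 of the 8 loci tested rose and none fell, where 28.0% of all 14899 loci rose and 30.3% fell (edgeR's quasi-likelihood test, Benjamini-Hochberg adjusted p under 0.05). The median log2 fold change of the 8 was 0.53, against -0.00 over all loci. The member genes were chosen with earlier results of these data known. Neither this median nor the count of 6 can therefore show an enrichment over all loci. The same holds for the counts of member loci and regions given below. Rab25, which entered the test through its high level in PB3-ERI-R, had to differ there, and without it the count was 5 of 7.

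**Figure D1:**
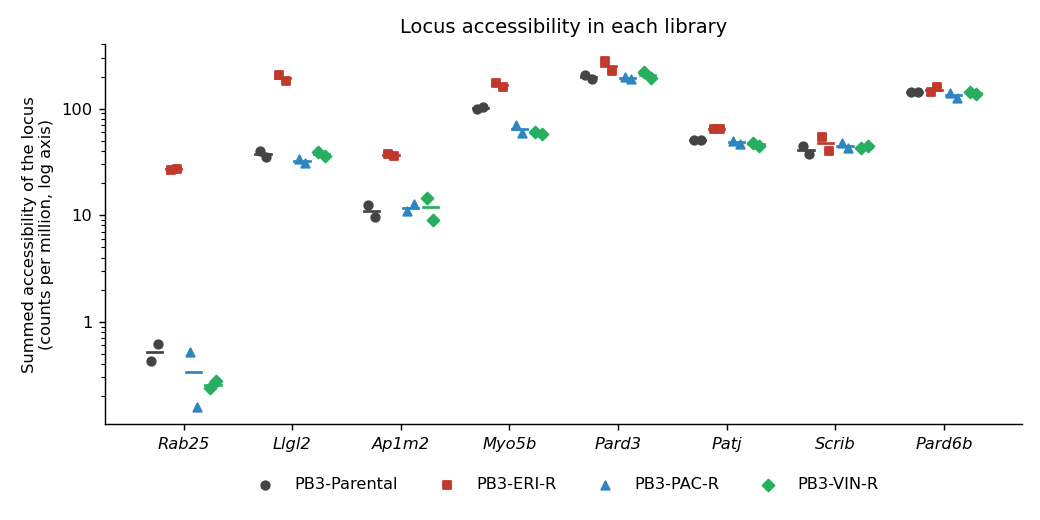
Summed accessibility of each locus (y axis, CPM, log scale) in the 2 libraries of each of 4 lines; points are libraries and short bars are means. Rab25, Llgl2, Ap1m2, Myo5b, Patj and Pard3 are highest in both PB3-ERI-R libraries, whereas those of Scrib and Pard6b overlap with PB3-Parental.

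In the Par complex, Pard3 is the scaffold that gathers Pard6 and atypical protein kinase C at tight junctions. The 2 libraries of its locus had 207 and 189 CPM in PB3-Parental, 278 and 227 in PB3-ERI-R, 200 and 190 in PB3-PAC-R and 220 and 194 in PB3-VIN-R. Both PB3-ERI-R libraries lay above all others, by a margin smaller than the gap between them. The log2 fold change was 0.35 ± 0.12 (SE), with an adjusted p of 0.0312 from edgeR's quasi-likelihood test. It was lost without PB3-ERI-R replicate 1 (0.20, adjusted p 0.206) and without PB3-Parental replicate 2 (0.29, adjusted p 0.163), with regions inside the gene only (0.34, adjusted p 0.0573) and near gene ends only (0.08, adjusted p 0.756).

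Pard6b, which links Cdc42 to atypical protein kinase C, had 143 and 144 CPM in PB3-Parental, 143 and 159 in PB3-ERI-R, 141 and 125 in PB3-PAC-R and 143 and 137 in PB3-VIN-R. The libraries of all lines but PB3-PAC-R overlapped or touched those of PB3-Parental. The log2 fold change in PB3-ERI-R was 0.07 ± 0.10 (adjusted p 0.567, edgeR), and its sign turned without a scaling factor (-0.01) and with an offset for the change of its surroundings (-0.20). Its regions did not move together, as described below, and with those inside the gene alone the locus rose by 0.54 (adjusted p 0.00131).

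In the Crumbs complex, Patj is the PDZ-domain scaffold that binds Pals1 next to Crb3. Its locus had 51.1 and 50.4 CPM in PB3-Parental, 64.2 and 64.6 in PB3-ERI-R, 49.5 and 46.7 in PB3-PAC-R and 47.3 and 44.9 in PB3-VIN-R. PB3-ERI-R was above every other library. The log2 fold change was 0.34 ± 0.10 (adjusted p 0.0148, edgeR), which did not pass without PB3-Parental replicate 1 (adjusted p 0.0603), without PB3-Parental replicate 2 (adjusted p 0.0724) or without a scaling factor (adjusted p 0.0673). Crb3, the small transmembrane protein that anchors the complex in epithelia, had no region of its own. The nearest region, chr17:57060176-57060809, lay 1392 bp from Crb3 and 267 bp from Slc25a23, to which it was counted. It had 26.8 and 35.3 CPM in PB3-Parental and 26.2 and 31 in PB3-ERI-R, with a log2 difference of -0.12 ± 0.21 (adjusted p 0.615, edgeR), so these groups overlapped.

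In the Scribble complex, Llgl2, the mammalian Lethal giant larvae of epithelia, had 40 and 35.3 CPM at its locus in PB3-Parental, 206 and 180 in PB3-ERI-R, 33.5 and 31.1 in PB3-PAC-R and 39.5 and 35.9 in PB3-VIN-R. The PB3-ERI-R libraries did not overlap with any other, at 5.13 times the parental level. The log2 fold change was 2.36 ± 0.12 (adjusted p 1.27e-07, edgeR). The regions in its 5 Mb window of chromosome 11 (115 to 120 Mb) were higher as well, with a median log2 change of 1.42, and with that taken out Llgl2 rose by 0.94 (adjusted p 2.11e-05). A gain of DNA copies in the window and opening of its chromatin cannot be told apart here. Scrib, the scaffold of the complex, had 44.3 and 37.3 CPM in PB3-Parental, 54.6 and 39.6 in PB3-ERI-R, 47.3 and 42.5 in PB3-PAC-R and 43 and 44.7 in PB3-VIN-R, with all groups overlapping PB3-Parental. Its log2 fold change of 0.21 ± 0.16 in PB3-ERI-R had an adjusted p of 0.296 (edgeR), and 1 library decided its sign, at -0.04 without PB3-ERI-R replicate 1 and 0.43 (adjusted p 0.0449) without replicate 2.

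Among the traffic genes, Rab25 was nearly closed outside PB3-ERI-R. Its only region had 6 and 8 counts (0.43 and 0.62 CPM) in PB3-Parental, 300 and 251 counts (26.8 and 27.2 CPM) in PB3-ERI-R, 7 and 2 counts (0.515 and 0.158 CPM) in PB3-PAC-R and 5 and 6 counts (0.237 and 0.276 CPM) in PB3-VIN-R. The level in PB3-ERI-R was 50.9 times the parental one, a log2 fold change of 5.67 ± 0.36 (adjusted p 3.94e-07, edgeR). A loess offset by mean abundance lowered it to 3.44. Rab25 passed the filter only through PB3-ERI-R and had to differ there, so its p-value adds nothing to that. The locus of Ap1m2 had 12.5 and 9.61 CPM in PB3-Parental, 37.7 and 36.1 in PB3-ERI-R, 10.9 and 12.6 in PB3-PAC-R and 14.6 and 9.06 in PB3-VIN-R. Only the PB3-ERI-R libraries were apart, with a log2 fold change of 1.74 ± 0.25 (adjusted p 0.000123, edgeR), and the change was 5.84 when the sum held only the region at the gene end.

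Myo5b, the myosin that tethers Rab11 and Rab25 vesicles to actin, was the member that also moved in another resistant line. Its locus had 99.3 and 104 CPM in PB3-Parental, 173 and 159 in PB3-ERI-R, 69.8 and 59.6 in PB3-PAC-R and 60.2 and 57.6 in PB3-VIN-R. PB3-ERI-R lay above and both other resistant lines below PB3-Parental, with no overlap. The log2 fold change in PB3-ERI-R was 0.71 ± 0.10 (adjusted p 0.000164, edgeR), and 0.46 with the window offset.

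Per kb of region, the loci also differed in level. In PB3-Parental, Rab25 was lowest at 2.03 CPM per kb, followed by Ap1m2 at 14, Llgl2 at 21.6, Patj at 21.9, Myo5b at 26, Pard3 at 29.3, Pard6b at 34.2 and Scrib at 35.5. In PB3-ERI-R the order of levels began with Patj at 27.8 and Pard6b at 36 CPM per kb and ended with Rab25 at 104 and Llgl2 at 111. Neighbours such as Llgl2 and Patj, or Pard6b and Scrib, in the parental order were closer than the SD of a locus between libraries, which for Llgl2 was 3.36 on 37.7 CPM and for Scrib 4.92 on 40.8 CPM.

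**Figure D2:**
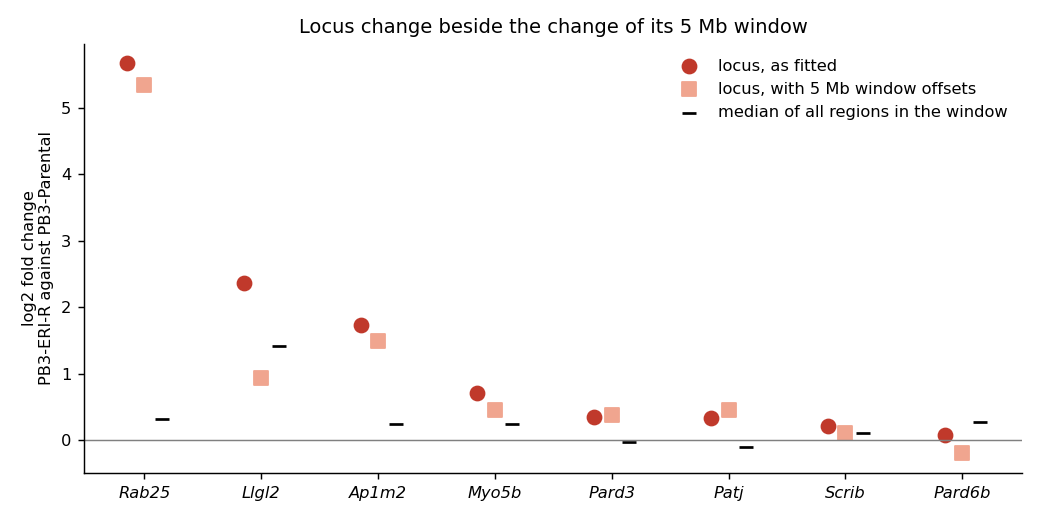
Log2 fold change of each locus in PB3-ERI-R against PB3-Parental (y axis) as fitted (circles), with the median change of its 5 Mb window as an offset (squares), and that median itself (dashes). Llgl2 falls from 2.36 to 0.94 under the offset, and Rab25 stays above 5.

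Taken region by region, the members gained and lost sites side by side. Of the 41 regions 25 gained and 11 lost accessibility in PB3-ERI-R against PB3-Parental, and 5 did not pass the test. Among all 57415 regions tested, 35.4% gained and 37.6% lost. Peaks of PB3-ERI-R alone, 24.4% of the 41 and 16.9% of all regions, are in these counts through the line in which they were high. The 7 regions at a promoter or within 1 kb of a gene end all gained. Those of Rab25 and Ap1m2 passed the filter only through PB3-ERI-R and had to differ there. Of all regions that overlap a RefSeq promoter window, 45.3% gained and 8.54% lost, so gain is also the common direction for promoters in general. All 11 lost regions were away from promoters, where 18 others gained; of all regions outside promoter windows 33.4% gained and 43.5% lost. The split depends on scaling: without a scaling factor 17 of the 41 gained and 14 lost, and of all regions 25.9% gained and 43.8% lost, with a median log2 change of -0.29 in place of 0.07.

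**Figure D3:**
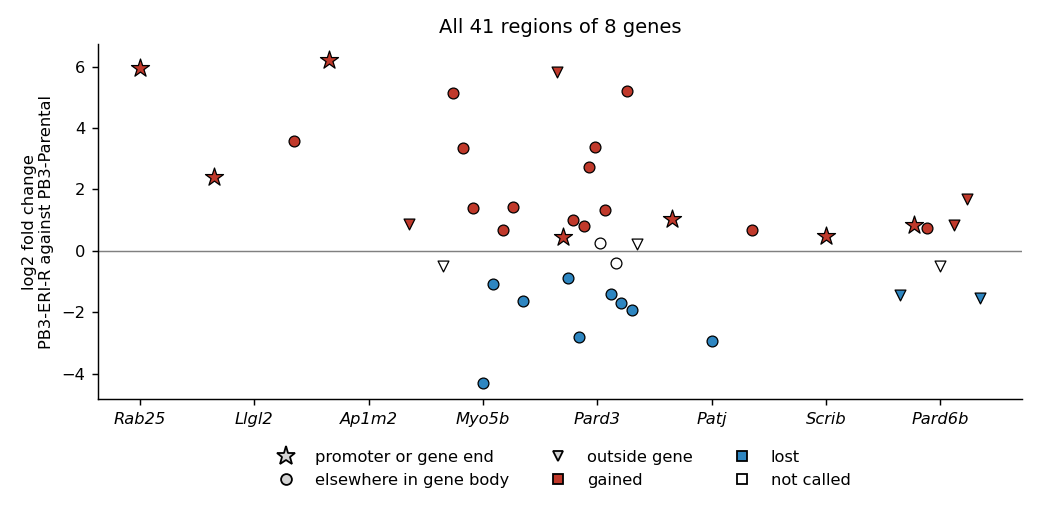
Log2 fold change of all 41 regions in PB3-ERI-R against PB3-Parental (y axis), by gene and in genome order within a gene; stars are promoter or gene-end regions, circles lie elsewhere in the gene and triangles outside it, and the fill marks gained, lost or not called. All 7 stars are above 0, while Myo5b, Pard3, Patj and Pard6b hold both gained and lost regions.

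The promoter regions fell into closed and open ones. At Rab25 (chr3:88548221-88548479) and Ap1m2 (chr9:21312088-21312502), whose windows are printed above, parental counts were under 10 a library. The Ap1m2 promoter had 6 and 3 counts in PB3-Parental, 235 and 192 in PB3-ERI-R, 6 and 7 in PB3-PAC-R and 12 and 5 in PB3-VIN-R. Only PB3-ERI-R was high, with a log2 fold change of 6.21 ± 0.40 (adjusted p 7.87e-09, edgeR) on the scale of the fit over regions. The Rab25 promoter is the same region as its locus and changed by 5.95 ± 0.37 (adjusted p 6.52e-09) in that fit. Both promoters passed the filter only through PB3-ERI-R, so they had to differ there and their p-values add nothing to that. With loess offsets the changes were smaller, at 1.59 (adjusted p 0.0069, edgeR) for Ap1m2 and 1.31 (adjusted p 0.00941, edgeR) for Rab25. The same limit holds for these p-values. Both were listed as peaks in PB3-ERI-R alone in the authors' deposited lists, with a fold enrichment of 14.8 for Ap1m2 and 10.4 for Rab25.

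The other 5 promoters were peaks in every line. The Llgl2 gene-end region (chr11:115823672-115824670) had 28.8 and 26.8 CPM in PB3-Parental and 158 and 140 in PB3-ERI-R, a log2 fold change of 2.42 ± 0.14 (adjusted p 4.26e-09, edgeR; adjusted p 1.57e-05 and a change near 1 with the window offset). The Patj promoter (chr4:98395475-98396644) had 15 and 18 CPM against 32.6 and 35.2, a change of 1.04 ± 0.23 (adjusted p 0.000837). The Pard6b promoter (chr2:168080444-168081597), a window it shares with the gene model Gm39990, had 43.5 and 47.4 CPM against 77.5 and 86.6, a change of 0.85 ± 0.16 (adjusted p 0.000189). In these 3 the PB3-ERI-R libraries were above every other library.

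At Scrib and Pard3 the gain was smaller and less certain. The Scrib gene-end region (chr15:76068964-76070113) had 37.2 and 32 CPM in PB3-Parental and 56.7 and 40.4 in PB3-ERI-R, a log2 change of 0.49 ± 0.18 (adjusted p 0.0237, edgeR). The Pard3 promoter (chr8:127063517-127064888) had 68.3 and 56.8 CPM against 102 and 68.1, a change of 0.45 ± 0.17 (adjusted p 0.0321), and its groups overlapped. Neither passed without a scaling factor (0.13, adjusted p 0.50 for Scrib; 0.08, adjusted p 0.653 for Pard3), with upper quartile factors or with loess offsets. Both were also lost without PB3-ERI-R replicate 1 (0.22, adjusted p 0.32 for Scrib; 0.12, adjusted p 0.541 for Pard3) and without PB3-Parental replicate 2 (0.39, adjusted p 0.149; 0.32, adjusted p 0.2), and that of Scrib with the window offset (0.38, adjusted p 0.0616). The counts of Scrib are the same in both fits: its log2 change was 0.21 in the fit over loci and 0.49 in the fit over regions, which scale the PB3-ERI-R libraries by factors of 0.9298 and 0.9754 and of 0.8023 and 0.8584.

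**Figure D4:**
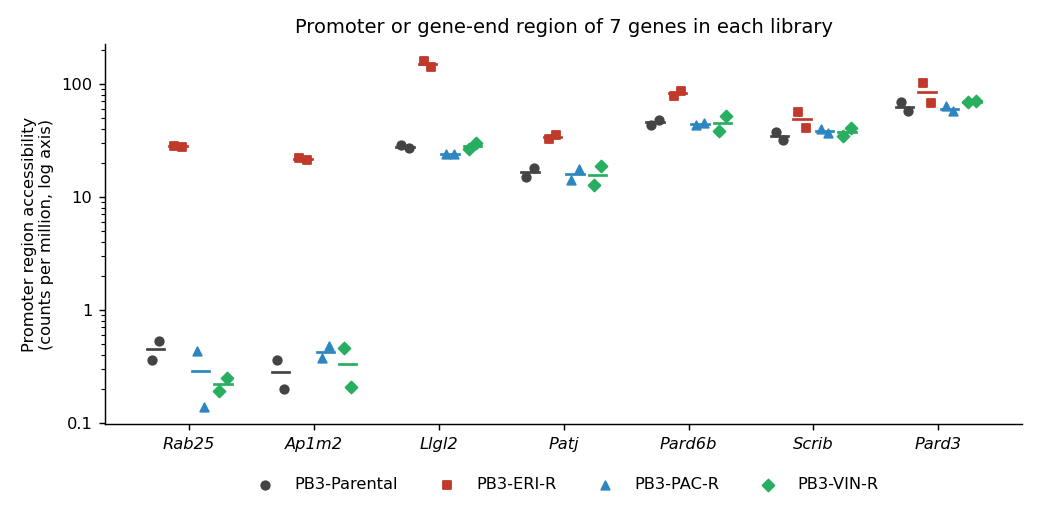
Accessibility of the 7 promoter or gene-end regions (y axis, CPM, log scale) in the 2 libraries of each line; points are libraries and bars are means. Rab25 and Ap1m2 are under 1 CPM outside PB3-ERI-R, and the others are above 10 CPM in every library.

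Inside and around the genes the changes went both ways. Of the 16 regions of Pard3, 8 gained, 5 lost and 3 did not pass, from -2.81 to 5.82 on the log2 scale. The region with the smallest adjusted p among those gained (chr8:127025214-127025692), 37.7 kb outside the gene, had 0.241 and 0.266 CPM in PB3-Parental and 18.5 and 10.7 in PB3-ERI-R (log2 change 5.82 ± 0.44, adjusted p 3.36e-08, edgeR). It passed the filter only through PB3-ERI-R and had to differ there, as did chr8:127338244-127338530, also among those gained. Among those lost, the region with the smallest adjusted p was chr8:127138695-127138925, 75.3 kb inside the nearer gene end, with 5.18 and 3.39 CPM against 0.65 and 0.554 (-2.81 ± 0.40, adjusted p 1.67e-05). The small change of the summed Pard3 locus thus held regions that moved by several log2 units in opposite directions.

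Pard6b had 4 gained, 2 lost and 1 uncalled region. The lost region with the smallest adjusted p, chr2:168072539-168073304, lay 7.7 kb outside the gene and had 29.4 and 28.6 CPM in PB3-Parental and 9.85 and 11.7 in PB3-ERI-R (-1.43 ± 0.18, adjusted p 6.33e-06, edgeR), while PB3-PAC-R and PB3-VIN-R stayed between 27.9 and 30.9 CPM. Of the 3 regions of Patj, the promoter and 1 intragenic region gained, and chr4:98455266-98455693, 59.7 kb inside, lost, with 8.19 and 5.12 CPM against 0.464 and 1.33 (-2.93 ± 0.43, adjusted p 2e-05). The second region of Llgl2 (chr11:115838772-115839519), 14.7 kb inside, rose by 3.59 ± 0.32 (adjusted p 1.4e-07) and that of Ap1m2 (chr9:21313373-21313746), 1.02 kb outside, by 0.86 ± 0.26 (adjusted p 0.0074).

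Myo5b had no region within 1 kb of a gene end. Of its 9 regions 5 gained, 3 lost and 1 did not pass in PB3-ERI-R. The gained region with the smallest adjusted p, chr18:74444014-74444271, lay 1.65 kb inside the gene end and had 1.2 and 0.932 CPM in PB3-Parental, 38.8 and 37.4 in PB3-ERI-R, 0.247 and 0.479 in PB3-PAC-R and 0.42 and 0.416 in PB3-VIN-R (5.14 ± 0.30 in PB3-ERI-R, adjusted p 4.5e-09, edgeR). The lost one, chr18:74537041-74537483, lay 94.7 kb inside, with 14 and 12.2 CPM in PB3-Parental, 0.65 and 0.664 in PB3-ERI-R, 6.54 and 6.92 in PB3-PAC-R and 5.87 and 7.28 in PB3-VIN-R (-4.31 ± 0.34 in PB3-ERI-R, adjusted p 4.97e-08). At both sites PB3-PAC-R and PB3-VIN-R lay below PB3-Parental, and at the first PB3-ERI-R lay far above it.

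In the authors' deposited peak lists, which hold 1 list per line, 25 of the 41 regions (61%) were peaks in PB3-Parental, where 64.6% of all regions were. In PB3-ERI-R it was 27 (65.9% against 52.4% of all regions), in PB3-VIN-R 25 (61% against 78.8%) and in PB3-PAC-R 22 (53.7% against 67.4%). The members' share was thus above that of all regions in PB3-ERI-R and below it in the other 3 lines, a difference that was not tested. Peaks in all 4 lines made up 13 (31.7%, against 31.4% of all regions). Peaks of PB3-ERI-R alone made up 10 (24.4% against 16.9%), with 4 at Pard3, 2 at Myo5b and 1 each at Ap1m2, Llgl2, Pard6b and Rab25, and these are among the 41 through the line in which they were high. Peaks in every line but PB3-ERI-R made up 6 (14.6% against 26.9%), at Pard3, Myo5b, Pard6b and Patj.

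The paclitaxel and vinorelbine lines were compared with the same parental libraries. In PB3-PAC-R against PB3-Parental none of the 8 loci passed edgeR's test, where 0.114% of all loci did. At an unadjusted p under 0.05 it was 1 of the 8, against 848 of all 14899 loci. DESeq2 called 1, as did edgeR with the replicate number as a block, and the shares of all loci under these are not given here. In PB3-VIN-R against PB3-Parental 1 of the 8, Myo5b, fell, where 0.275% of all loci fell and 0.369% rose. Of the other 7 loci in PB3-VIN-R, Rab25 had 5 to 8 counts a library in both groups, and the rest had log2 changes between -0.14 and 0.11.

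The Myo5b locus, at 101 ± 3.01 CPM (SD, n = 2) in PB3-Parental, was at 58.9 ± 1.85 in PB3-VIN-R and 64.7 ± 7.21 in PB3-PAC-R. The log2 fold change was -0.78 ± 0.11 in PB3-VIN-R (adjusted p 0.0172, edgeR) and -0.65 ± 0.11 in PB3-PAC-R (adjusted p 0.071, edgeR, and 0.000849 with DESeq2). With the replicate number as a block edgeR called Myo5b in PB3-PAC-R too, as given at the end. The call in PB3-VIN-R was lost without PB3-Parental replicate 2 (adjusted p 0.117), without PB3-VIN-R replicate 2 (adjusted p 0.0909) and with window offsets (-0.64, adjusted p 0.0742), and it held without the PB3-ERI-R libraries (adjusted p 0.0402). PB3-PAC-R and PB3-VIN-R did not differ past the threshold, at 0.14 ± 0.11 (adjusted p 1).

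All 9 regions of Myo5b had a negative log2 change in both lines, from -2.12 to -0.29 in PB3-PAC-R and from -1.34 to -0.48 in PB3-VIN-R. Across all 41 regions edgeR called none in PB3-PAC-R, where it called 0.0853% of all regions. At an unadjusted p under 0.05 there were 8 of the 41, against 3316 of all 57415 regions. DESeq2 called 1 of the 41, where 0.108% of all regions rose and 0.160% fell. For PB3-VIN-R edgeR also called none of the 41, against 0.678% of all regions. The unadjusted count for that line was 11, against 5667 of all regions. DESeq2 called 1 of the 41 there, where 0.505% of all regions rose and 0.589% fell. Of the member regions with an unadjusted p under 0.05, 9 in PB3-VIN-R and 6 in PB3-PAC-R belonged to Myo5b. The 7 promoters ran from -0.59 to 0.56 in PB3-PAC-R and from -0.99 to 0.24 in PB3-VIN-R, with none at an unadjusted p under 0.05.

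**Figure D5:**
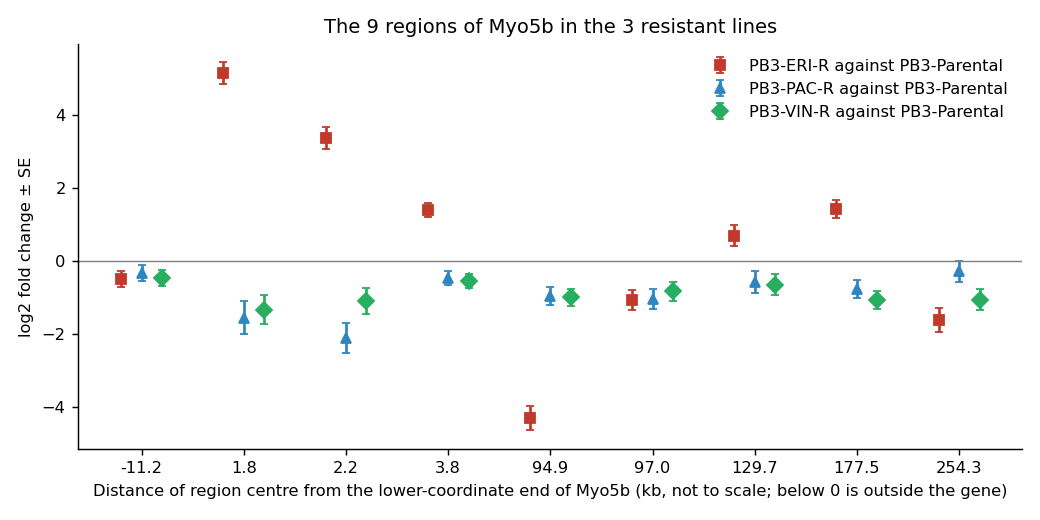
Log2 fold change ± SE (y axis) of the 9 Myo5b regions against PB3-Parental in each resistant line; the x axis gives the distance of the region centre from the lower-coordinate gene end in kb, evenly spaced and not to scale. All points of PB3-PAC-R and PB3-VIN-R are below 0, and those of PB3-ERI-R run from -4.31 to 5.14.

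Between resistant lines, 6 of the 8 loci were higher in PB3-ERI-R than in PB3-PAC-R (29.4% of all loci were higher) and 5 than in PB3-VIN-R (28.2%). Rab25, which entered the test through its high level in PB3-ERI-R, is in both counts and had to differ. Pard3 was the locus called in the first (0.37 ± 0.12, adjusted p 0.0231, edgeR) and not in the second (0.29 ± 0.12, adjusted p 0.0671). By regions, 22 of 41 were higher and 10 lower than in PB3-PAC-R (35.3% and 37.6% of all), and 21 higher and 9 lower than in PB3-VIN-R (35.5% and 37.5%). The higher ones include the promoter regions of Rab25 and Ap1m2, which passed the filter only through PB3-ERI-R. The region with the smallest adjusted p of each member was one already described: the promoter regions of Ap1m2, Llgl2 and Rab25, the gained regions of Myo5b and Pard3 and the lost ones of Pard6b and Patj. In the gained Myo5b region, for example, the log2 difference was 6.70 ± 0.35 from PB3-PAC-R (adjusted p 2.19e-09, edgeR) and 6.49 ± 0.33 from PB3-VIN-R (adjusted p 1.18e-09). Between PB3-PAC-R and PB3-VIN-R no locus and no region of the members was called by edgeR or DESeq2. Of all features edgeR called 0.0336% of loci and 0.00871% of regions. At an unadjusted p under 0.05 there were 0 member loci, against 638 of all 14899 loci. There were 3 such member regions, for which the share of all regions is not given here.

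Other genes of the same machinery changed in both directions. Of 83 listed genes of polarity and apical traffic 77 were tested, and in PB3-ERI-R 23 rose, 29 fell and 25 did not pass, with a median log2 change of -0.04, where 28.0% of all loci rose and 30.3% fell. Their difference from the 8 loci was not tested, nor was any difference between the smaller lists below. These lists were chosen with earlier results of these data known, and each is to be read beside the same shares of all loci. In PB3-PAC-R and PB3-VIN-R none was called by edgeR or DESeq2. At an unadjusted p under 0.05 there were 3 and 5 of the 77, against 848 and 1067 of all 14899 loci.

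Of the other 6 Crumbs complex genes none rose and 3 fell. Lin7a, an adaptor of the complex, had 20.1 and 20.7 CPM in PB3-Parental and 0.894 and 0.975 in PB3-ERI-R (-4.44 ± 0.27, adjusted p 3.07e-07, edgeR), and Crb1, best known in retina, fell by 3.81 on the log2 scale. Lin7a was at -2.75 with window offsets. Of 6 Par complex genes 3 rose and 1 fell. Prkcz, an atypical protein kinase C, had 28.1 and 21.6 CPM against 62.4 and 54.6 (1.23 ± 0.16, adjusted p 6.73e-05; 1.87 with window offsets, 4.18 at the gene end only), Pard6g rose by 0.52, and Cdc42, the GTPase that activates the complex, had 108 and 107 CPM against 22.5 and 28.5 (-2.08 ± 0.13, adjusted p 3.92e-07; a smaller change with an adjusted p of 0.000313 at the gene end only).

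Of 9 Scribble complex and related genes 2 rose and 6 fell, where 28.0% of all loci rose and 30.3% fell. Lrrc7, a relative of Scrib best known at neuronal synapses, fell by 4.16 (-1.53 with window offsets) and Erbin by 2.60. Lrrc1 rose by 1.19, a call lost with regions inside the gene only (0.24, adjusted p 0.214). Dlg3 rose by 0.49, which turned to -0.40 with window offsets and did not pass without PB3-ERI-R replicate 1 (adjusted p 0.0791) or without PB3-Parental replicate 2 (adjusted p 0.0881). Of 7 Par1 and Par4 kinase genes 1 rose and 4 fell, none of the 3 named holding under every setting. Mark2 fell by 0.42 and was at -0.07 with window offsets (adjusted p 0.587). Strada fell by 0.47 and was at -0.03 with gene-end regions (adjusted p 0.892) and at 0.04 with regions inside the gene only. Mark4 rose by 0.36 and was at 0.08 with window offsets (adjusted p 0.643), and its call was also lost when any 1 library of PB3-Parental, PB3-ERI-R or PB3-PAC-R was left out (adjusted p from 0.0639 to 0.144).

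Apical recycling genes, which work with Rab25 and Myo5b, had 1 rise and 7 falls among 13, beside 28.0% and 30.3% of all loci. Rab11fip2, which joins Rab11 to Myo5b, had 167 and 181 CPM in PB3-Parental and 57.7 and 51.7 in PB3-ERI-R (-1.67 ± 0.12, adjusted p 7.15e-07, edgeR; -1.07 with window offsets, -0.47 at the gene end only), and Myo5a, the relative of Myo5b, fell by 0.85. Rab10 was the one that rose (0.48), and it turned to -0.11 with window offsets and was 0.29 at the gene end only. Of 11 apical fusion genes 4 rose and 4 fell: the SNARE Vamp8 rose by 1.20, Sytl4 rose by 1.89, a call lost with window offsets (0.36, adjusted p 0.33), and Sytl2 (-1.16) and Exoc6 (-0.58) fell, the latter pair with signs that turned under window offsets (0.86 and 0.17).

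Among 9 genes of the AP-1 adaptor 2 rose and 2 fell. Ap1b1, the large subunit that works with Ap1m2, had 123 and 95.4 CPM in PB3-Parental and 32.5 and 36 in PB3-ERI-R (-1.67 ± 0.14, adjusted p 2.51e-06, edgeR). Ap1s2 rose by 1.13, but was at -0.30 with window offsets, and Ap1s3 fell by 0.80 with all its regions and was at 1.19 with those at the gene end only. Aftph rose by 0.52, a call lost with window offsets (0.03, adjusted p 0.822), at the gene end only (0.16, adjusted p 0.281), inside the gene only (0.23, adjusted p 0.115) and within 10 kb (0.26, adjusted p 0.0784). Apical scaffold and cargo genes had the most rises among these lists, 10 of 16, with 2 falls and a median of 0.82. Of all loci 28.0% rose and 30.3% fell, and a difference from that was not tested. Prom1, a protein of apical protrusions, had 4 counts over both libraries of PB3-Parental and 441 over both of PB3-ERI-R (adjusted p 1.83e-06, edgeR). Prom1 is among the 10 that rose, but it passed the filter only through PB3-ERI-R and had to differ there. Slc9a3r1, the apical scaffold also named Ebp50, had 109 and 95.8 CPM against 383 and 319 (1.78 ± 0.12, adjusted p 6.75e-07, and 0.36 with window offsets). Podxl, the apical sialomucin, fell by 0.90 (-0.55 with window offsets, -1.62 at the gene end only). Anxa2 fell by 0.57, which did not pass at the gene end only (-0.24, adjusted p 0.499), without PB3-ERI-R replicate 2 (adjusted p 0.0695) or without PB3-Parental replicate 1 (adjusted p 0.0752).

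For each member the locus outside the list most alike in pattern was found by the root mean square difference of centred log2 CPM over the 8 libraries among 14891 loci, as a description. Rab25 was nearest to Urah (0.192 log2 units), Llgl2 to Lnx2 (0.0676), Ap1m2 to Slc26a11 (0.0967), Myo5b to Eps8l1 (0.0988), Pard3 to Slc9a9 (0.0323), Patj to Cobll1 (0.0205), Scrib to Snx7 (0.0579) and Pard6b to Tsks (0.0357). Eps8l1 shared the 3-way pattern of Myo5b, with log2 changes of 0.85 in PB3-ERI-R, -0.78 in PB3-VIN-R and -0.60 in PB3-PAC-R, the last 2 not called (adjusted p 0.105 and 0.475, edgeR).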

How the data were processed

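ATAC-seq was read in 8 libraries of 4 lines. Per the submitters' processing notes, the tools were Bowtie2 2.2.6 and MACS2 2.1.1, with cutadapt 1.9.1, bcl2fastq 2.20.0.422, featureCounts, Picard and deepTools, on mm10 or GRCm38. The sources used here do not give their settings. The authors deposited raw counts per consensus region. Their deposited peaks, listed once per line, carry a score, a fold enrichment ratio and a -log10 q-value. The other values of the deposited files are start and end positions and summit offsets.

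Each region went to the closest of 21883 protein-coding RefSeq genes (GRCm38.p6), without strand, and counts were summed per gene. Both tables were fitted with edgeR 4.0.16 in R 4.3.3, with TMM scaling, filterByExpr by line, 1 term per line over all 8 libraries, and the quasi-likelihood F test, two-sided, with Benjamini-Hochberg adjustment over all features at 0.05. CPM values use TMM-scaled library sizes of the fit named. The scripts were tested on simulated data. A region at a promoter overlaps a RefSeq window or lies within 1 kb of a gene end. Window offsets are medians of all regions in 5 Mb, taken where at least 20 regions were counted. No replicates were alike within counting noise, with a chi-square of 4.802 to 10.34 per degree of freedom.

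Members and gene lists were chosen with earlier results of these data known. Named were every member, its promoter region, its gained and lost region with the smallest adjusted p, up to 2 rising and 2 falling loci of each pathway list, and the most alike locus; the second regions of Llgl2 and Ap1m2 were added after their values were seen. The alternatives were DESeq2 1.42.0, other scalings and filters, other distances, left-out libraries and a replicate block.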

Additional observations from a re-analysis of the deposited data

Results flagged for a closer look

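The effect against the shared parental libraries differed between resistant lines at 6 loci for PB3-ERI-R against PB3-PAC-R, by the test of the difference between the lines (edgeR, adjusted over all loci). The log2 difference was 6.27 ± 0.38 (SE) for Rab25, 2.58 ± 0.12 for Llgl2, 1.65 ± 0.25 for Ap1m2, 1.36 ± 0.11 for Myo5b, 0.42 ± 0.10 for Patj and 0.37 ± 0.12 for Pard3. For PB3-ERI-R against PB3-VIN-R it differed at 5 loci, by 6.67 ± 0.37 for Rab25, 2.36 ± 0.12 for Llgl2, 1.64 ± 0.24 for Ap1m2, 1.50 ± 0.11 for Myo5b and 0.48 ± 0.10 for Patj. All libraries of PB3-ERI-R were higher in each of these. Both sets share the PB3-ERI-R libraries and are not independent of each other. Rab25 entered the test through its high level in PB3-ERI-R and had to differ in both. Of all loci 29.4% were higher in PB3-ERI-R than in PB3-PAC-R and 28.2% higher than in PB3-VIN-R.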

How the results depend on the processing

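Counts of changed members in PB3-ERI-R against PB3-Parental stayed within 1.5 times under the scalings, filters and distances tried. The exception was a minimum absolute log2 change of 1, where 3 loci, 4 promoters and 20 of the other polarity loci (11 higher, 9 lower) passed. The shares of all loci and regions at that minimum are not given here, so these counts cannot be set against them. DESeq2 and the replicate block each called 1 locus in PB3-PAC-R. In PB3-VIN-R the count was 0 with window offsets, with gene-end regions only and at the minimum of 1, and leaving out a library gave 0 to 1 locus and 0 to 2 regions. DESeq2 called 1 region in each of these lines. The labels give each line replicates 1 and 2, a shared number only, and same-numbered libraries deviated together with a correlation of 0.1374 to 0.5598. The cause was not tested. With that number as a block, edgeR called 3 regions in PB3-PAC-R and 6 in the vinorelbine line. The share of all regions called with the block is not given here, so these counts cannot be set against it. Myo5b in PB3-PAC-R had an adjusted p of 0.00379 with the block (edgeR), at the same log2 change of -0.65.

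Signs turned for Pard6b in PB3-ERI-R (-0.20 with window offsets, -0.01 unscaled) and PB3-VIN-R (0.04 with window offsets), and for Scrib with window offsets in PB3-PAC-R (-0.08) and PB3-VIN-R (-0.02). Pard3 in PB3-PAC-R was 0.01 with regions within 100 kb. With libraries left out, Scrib ran from -0.04 to 0.43 in PB3-ERI-R and from -0.01 to 0.23 in PB3-VIN-R, Pard3 from -0.09 to 0.05 in PB3-PAC-R and from -0.03 to 0.15 in PB3-VIN-R, and Ap1m2 from -0.09 to 0.29 and from -0.29 to 0.40. None of these passed the test, except Scrib without PB3-ERI-R replicate 2. Among other genes in PB3-ERI-R the window offsets turned Dlg3 (-0.40), Rab10 (-0.11), Sytl2 (0.86), Exoc6 (0.17) and Ap1s2 (-0.30). The choice of regions turned Sytl2 (0.60, gene end only), Strada (0.04, inside the gene) and Ap1s3 (1.19 at the gene end, 0.27 inside, 0.30 within 10 kb). Rab25 could not be given in PB3-PAC-R and PB3-VIN-R without PB3-ERI-R, where it fell under the filter, nor Myo5b from gene-end regions. The depth limits Rab25 outside PB3-ERI-R, with 2 to 8 counts a library.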
